A study of Homo sapiens with 12 samples.

Results

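The RNA described here came down with mouse IgG1, the control antibody of an RNA immunoprecipitation, from HK2 cells kept with IL-17 or with medium alone. HK2 is an established human kidney epithelial cell line. The 6 IgG libraries of a series of 12 were chosen by the antibody and treatment in their titles, 3 with IL-17 and 3 with medium. The other 6 libraries, precipitated with an antibody against FLAG, are used for comparison only. Cells of every group, controls included, carried human Arid5a with a FLAG tag, from 10 µg of transfected plasmid. The IL-17 groups then received 200 ng/mL IL-17 for 3 h and the medium groups received medium for the same time. Per the labels' protocols, extraction was with acid phenol or TRIzol, without saying which library had which, and libraries came from a low-input cDNA kit. Separate cultures are not stated for the replicates. The p-values below therefore reflect how far these libraries scatter, and that scatter may be technical.

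IL-17 is an inflammatory cytokine that signals in epithelial cells through a receptor of IL17RA and IL17RC chains and the adaptor Act1. It is known both for inducing transcripts and for prolonging the life of mRNAs with short half-lives. Arid5a is an RNA-binding protein that can stabilise such mRNAs. An IgG precipitation has no specific target: it recovers RNA and particles that adhere to beads and antibody, so its content reflects the abundance of RNA in the lysate, its stickiness and carry-over. The question put to these libraries was whether this background differed between treatments, since it is the baseline for the FLAG precipitates.

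Deposited values are given per Ensembl identifier, and 0 of the 60708 identifiers could be paired with a gene symbol here. RNA classes and gene lists, including markers of the kidney epithelium and of other cell types, were therefore not analysed here. Features are described by identifier and by what the files hold about them: level, apparent length and how their reads were shared. Apparent length is the ratio of a feature's estimated count to its TPM, a length-scaled share of transcripts,, divided by the median of that ratio in the same library. A value of 1 is a typical feature, and it follows the effective length that quantification used in that library.

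Totals of the IgG libraries ran from 746911 to 15837845 counts. IL-17 replicates 1, 2 and 3 held 5365495, 10336247 and 15837845 estimated counts, and medium replicates 1, 2 and 3 held 746911, 6118339 and 3803261. Depths overlapped between the treatments, with medium replicate 1 far below the others. A count of 0 allows up to 4.02 CPM, the count scaled to a common library total, in that library and from 0.189 to 0.789 CPM in the other 5 IgG libraries, from a floor of 3 counts that covers counting error only. After thinning to 740000 counts, IL-17 replicates 1, 2 and 3 held 32429, 20674 and 17318 features. Medium replicates 1, 2 and 3 held 10600, 25843 and 12996. The number of features at equal depth therefore overlapped between treatments, and IL-17 replicate 1 and medium replicate 2 stood above the other 4. Pearson correlations of log2(CPM + 1) over 24040 tested features were 0.893 to 0.938 among the IL-17 libraries and 0.601 to 0.751 among the medium libraries. Between treatments they ran from 0.682 to 0.905, so all 3 correlations among medium replicates lay below the highest between treatments. These correlations are across features, which are not independent replicates, and the libraries differ in depth.

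Very short features took a larger part of the RNA in most IL-17 libraries. The shortest 1% of features by apparent length, 282 in number, held 7.31%, 13.6% and 15.2% of counts in IL-17 replicates 1, 2 and 3. They held 11.1%, 1.48% and 3.06% in medium replicates 1, 2 and 3. Medium replicates 2 and 3 were thus the low libraries, while medium replicate 1 lay inside the IL-17 range. The means were 12.04% ± 4.18 (SD, n = 3) with IL-17 and 5.23% ± 5.18 (SD, n = 3) in medium. This difference of 6.81 percentage points did not exceed the spread of the libraries (exact permutation test, two-sided, p = 0.2, and 0.4 when adjusted for 4 library measures by Benjamini-Hochberg; the smallest p that 3 against 3 allows is 0.1). The other 3 measures were total counts, features at equal depth and the share of the 10 most abundant features, with exact permutation p of 0.2, 0.4 and 0.8. Thinning gave a difference of 6.76 percentage points at equal depth.

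The median apparent length of these features also differed between libraries. It was taken over those with at least 20 counts and a TPM of at least 0.2 in the library. In IL-17 replicates 1, 2 and 3 these were 196, 239 and 245 of the 282. In medium replicates 1, 2 and 3 they were 160, 137 and 137. The medians thus covered different sets of features, and the part of this in their differences was not tested. The median was 0.0040, 0.0066 and 0.0076 in IL-17 replicates 1, 2 and 3, and 0.0060, 0.0023 and 0.0021 in medium replicates 1, 2 and 3. Medium replicates 2 and 3 were again low and medium replicate 1 again lay among the IL-17 libraries. Effective length depends on the fragment lengths assumed for a library, and the part of this difference in the shares was not tested. FLAG libraries showed both values too: shares of 6.42%, 10.0% and 13.4% with IL-17 against 3.09%, 2.15% and 3.85% in medium, and median lengths of 0.0036 to 0.0054 against 0.0025 to 0.0028. On the TPM scale, which divides by effective length, the 282 features held 86.2%, 89.4% and 91.1% in the IgG IL-17 libraries. They held 88.0%, 67.3% and 79.8% of TPM in IgG medium replicates 1, 2 and 3, so most of that scale was taken up by very short features in every IgG library.

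**Figure D1:**
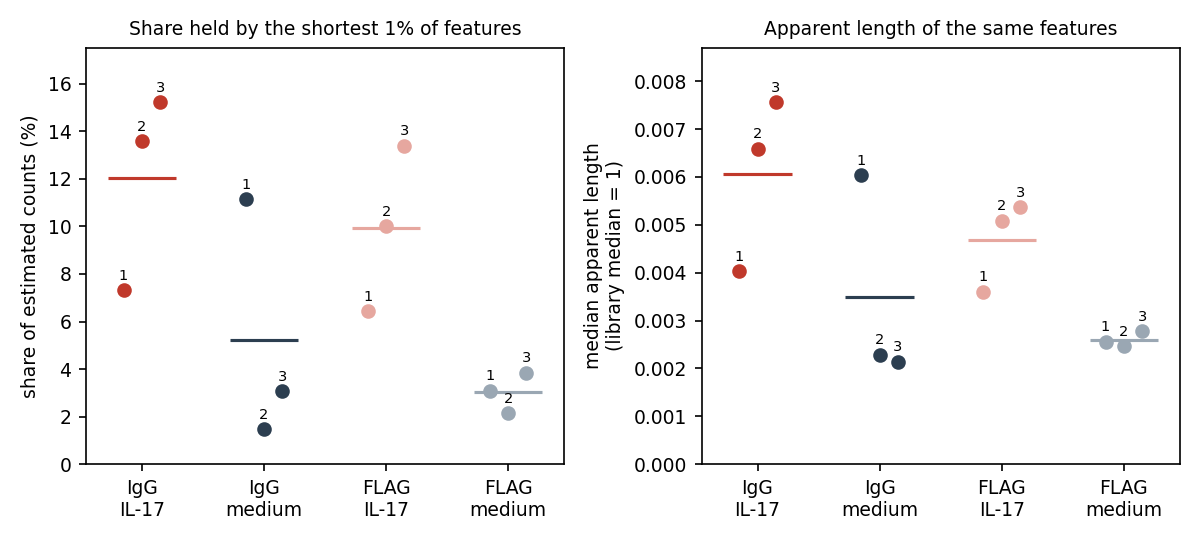
Left, the percentage of estimated counts held by the shortest 1% of features in each library. Right, the median apparent length of those among them with at least 20 counts and a TPM of at least 0.2 there. A value of 1 is the library's median feature. Points are single libraries labelled with the replicate number and lines are group means; IgG medium replicate 1, at 11.1% and 0.0060, lies with the IL-17 libraries in both panels.

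The abundant end of the IgG background was not called different. The 12 features with the highest mean share together held 20.04%, 24.6% and 30.8% of counts in IL-17 replicates 1, 2 and 3 and 41.0%, 23.7% and 16.3% in medium replicates 1, 2 and 3. These ranges overlapped. By edgeR none of the 12 passed, with adjusted p from 0.919 upward, and log2 fold changes ran from -1.92 to 1.61, with 6 of either sign. In 11 of the 12 the libraries of both treatments overlapped. The exception, ninth in abundance, held 1.11%, 1.76% and 1.0003% with IL-17 and 0.981%, 0.680% and 0.530% in medium, a log2 fold change of 0.70 ± 0.78 (SE, edgeR adjusted p = 1.0). The most abundant feature held 8.93%, 2.06% and 0.950% with IL-17 and 2.48%, 16.2% and 0.694% in medium. It varied more between replicates than between treatments. The second held 2.51%, 6.38% and 12.4% with IL-17 and 4.25%, 0.451% and 2.01% in medium, which also overlapped.

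Of 60708 features in the table, 24040 passed the filter on low counts. Of these, 3 were called higher with IL-17 and 0 were called lower by edgeR's quasi-likelihood test, which is 0.0125% and 0% of those tested. Without adjustment, 912 features (3.79%) had an edgeR p under 0.05 and a positive change, and 427 (1.78%) a negative one. Both directions together lie near the share of 0.05 that a calibrated test gives where nothing changed. The unadjusted higher count moved with single libraries, and so did the number of features passing the filter. It was 3231, against 673 lower, of 27339 tested without IgG medium replicate 2. Without IgG IL-17 replicate 2 it was 490, against 427 lower, of 27718 tested. DESeq2 with adjustment gave 122 higher features (0.523%) and 196 lower ones (0.841%). Libraries of both treatments did not overlap for 1738 features that were higher with IL-17 (7.23%) and 489 that were lower (2.03%). In either direction this was 9.26% of tested features, and random labels for 3 against 3 libraries give a share of up to 0.1. With TMM scaling, the middle feature of the table had a log2 fold change of 0.18. It was 0.06 with RLE factors, a shift of over 0.1, and the split at an unadjusted p under 0.05 was then 781 higher and 733 lower. Among the fits that left out 1 library, calls reached 64 higher and 11 lower without IgG medium replicate 1.

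**Figure D2:**
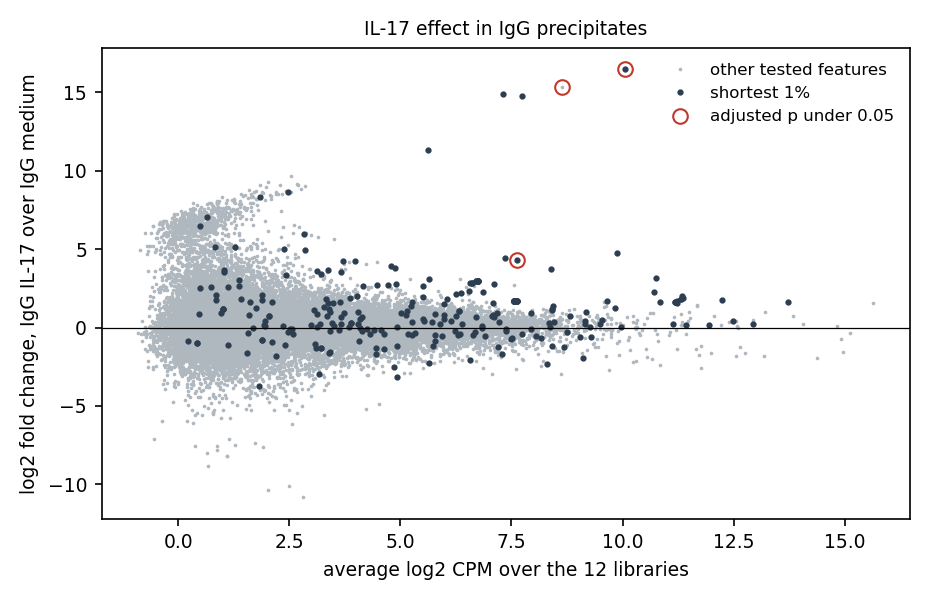
Log2 fold change of IgG IL-17 over IgG medium (vertical axis) against average log2 CPM over the 12 libraries (horizontal axis) for the 24040 tested features. Dark points are the shortest 1% of features and red circles are the 3 with an edgeR adjusted p under 0.05, all of them above 0.

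The strongest call was ENSG00000277209.1, and its reads were shared with another feature. It had 423, 923 and 382 CPM in IL-17 replicates 1, 2 and 3 and 0 in each medium library, with an edgeR adjusted p of 1.37e-06. Groups did not overlap. In those 3 libraries its estimated counts were fractional, at 2267.21, 9538.47 and 6045.19. A search over 4496 features with non-whole counts in at least 6 libraries found a single partner, ENSG00000259001.3, whose counts in the same libraries were 27041.79, 88552.53 and 71958.81. The sums 29309, 98091 and 78004 are whole, as they are in the other 9 libraries of the series at a tolerance of 0.01 counts. Partners found this way were chosen after the values were seen, and a whole sum is a property of the deposited numbers.

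The reads of this pair were divided differently by treatment. ENSG00000277209.1 received 7.74%, 9.72% and 7.75% of the pair's counts in IgG IL-17 replicates 1, 2 and 3 and 0% in all 3 IgG medium libraries. In FLAG libraries it received 9.28%, 4.90% and 4.22% with IL-17 and again 0% in medium. The pair's summed level was 5462, 9490 and 4925 CPM with IL-17 and 6078, 3448 and 1995 CPM in medium. Medium replicate 1 exceeded IL-17 replicates 1 and 3, so the sums overlapped. The means were 6626 ± 2495 CPM (SD, n = 3) with IL-17 and 3840 ± 2070 CPM (SD, n = 3) in medium, and the exact two-sided permutation p was 0.3. With all such pairs in the table summed, this pair had a log2 fold change of 0.58 ± 0.69 (SE, edgeR adjusted p = 1.0). Read length and fragment length settings of the quantification are not given for any library, and their part in the division was not tested. The call on ENSG00000277209.1 was lost when its reads were counted together with those of its partner. Since it held at most 9.72% of the pair's counts in any IgG library, the sum mostly follows the partner. The lost call therefore cannot show whether ENSG00000277209.1 itself changed.

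**Figure D3:**
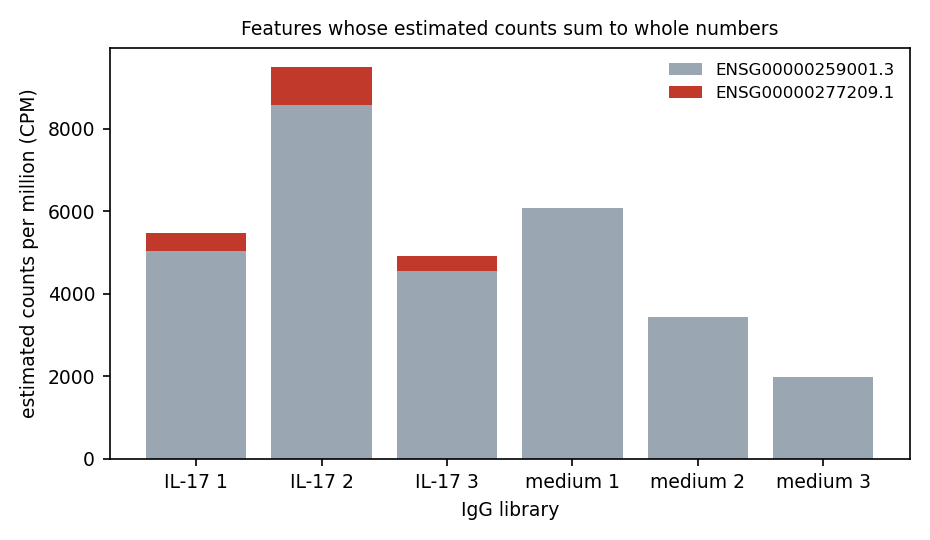
Stacked bars of CPM in the 6 IgG libraries for ENSG00000259001.3 (grey) and ENSG00000277209.1 (red), whose estimated counts add to whole numbers in every library. The red part is present in the 3 IL-17 libraries and 0 in the 3 medium libraries, while the bar heights of both treatments overlap.

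The next called feature, ENSG00000278774.1, was present in every library. It had 371, 344 and 152 CPM in IL-17 replicates 1, 2 and 3 and 11.9, 28.2 and 5.57 CPM in medium replicates 1, 2 and 3. The lowest IL-17 library was thus above the highest medium library. Means were 289 ± 120 CPM (SD, n = 3) and 15.2 ± 11.7 CPM (SD, n = 3), a ratio of 18.96. The fitted log2 change of 4.31 ± 0.70 (SE) passed, with an edgeR adjusted p of 0.0170. Its apparent length was 0.0196, within the shortest 1%, and its counts were not whole in any of the 12 libraries, so its reads were shared. It kept an adjusted p under 0.05 in 11 of 12 fits that left out a library, and without IgG medium replicate 3 the edgeR adjusted p was 0.0965. On the 6 IgG libraries alone the edgeR adjusted p was 0.139, without IL-17 replicate 1 and medium replicate 2 it was 0.176, and limma on log2(TPM + 1) gave 0.990. The FLAG libraries had 374 ± 129 CPM (SD, n = 3) with IL-17 and 35.1 ± 29.1 CPM (SD, n = 3) in medium, with an edgeR adjusted p of 0.00587. The difference between the IgG and FLAG effects was 0.24 on the log2 scale, with an edgeR adjusted p of 0.950.

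Other features of the same length had positive changes that did not pass. In all, 14 features lay within 5% of the apparent length of ENSG00000278774.1, a set chosen after the values were seen. Of the 13 others, 12 were tested, and all 12 had a higher level in every IL-17 library than in any medium library. The same held for 7.23% of all tested features and for 30.6% of the tested shortest 1%, of which the set is a part. None of the 12 was called, the smallest edgeR adjusted p being 0.0843, and shared reads mean that they are not independent. Their summed level, ENSG00000278774.1 included, was 2984, 3236 and 1387 CPM in IL-17 replicates 1, 2 and 3 and 408, 237 and 61.3 CPM in medium replicates 1, 2 and 3. These sums did not overlap. The ratio of means was 10.8, with 2536 ± 1003 CPM (SD, n = 3) against 235 ± 173 CPM (SD, n = 3), and the exact two-sided permutation p was 0.1, the smallest possible. Fitted as 1 feature, the sum had a log2 fold change of 3.12 ± 0.73 (SE) and an edgeR adjusted p of 0.233, so it did not pass.

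Summing by length gave overlapping groups for the third call, but other features made up most of that sum. It had 288, 2347 and 833 CPM in IL-17 replicates 1, 2 and 3, and its rounded count was 0 in each medium library, with an edgeR adjusted p of 0.0208. Its counts were not whole in 10 libraries, and its apparent length was 0.0109. With the 7 other features within 5% of that length, the sum was 14880, 22017 and 11002 CPM with IL-17 and 17785, 2448 and 3391 CPM in medium. Medium replicate 1 lay between the IL-17 libraries, so these sums overlapped. The set was defined by length alone, and no partner with whole sums was found for the third call. Its own mean with IL-17 was 1156 CPM, so the sum mostly follows the other features. The overlap therefore cannot show whether the called feature itself changed. Means were 15966 ± 5588 CPM (SD, n = 3) and 7875 ± 8596 CPM (SD, n = 3), with an exact two-sided permutation p of 0.3. The fitted sum had a log2 fold change of 0.60 ± 0.82 (SE, edgeR adjusted p = 1.0). The call itself depended on the setting. With RLE factors its edgeR adjusted p was 0.0868, with upper-quartile factors 0.0958 and with robust fitting 0.815. Leaving out the second IgG library with IL-17 gave an edgeR adjusted p of 0.0791, and leaving out the second or the third of the IgG medium libraries gave 0.110 and 0.149. Of the 7 other features, 5 had a positive and 2 a negative log2 fold change, and 2 did not overlap between treatments. Of all tested features, 57.2% had a positive change and 9.26% did not overlap in either direction. In FLAG libraries the third called feature had 542, 3638 and 1766 CPM with IL-17 and 11.98, 3.28 and 1016 CPM in medium. Medium replicate 3 exceeded IL-17 replicate 1 there, so FLAG groups overlapped, and the positive change did not pass (edgeR adjusted p = 0.457). The difference between the IgG and FLAG effects had an unadjusted p of 0.000149 and an edgeR adjusted p of 0.664.

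**Figure D4:**
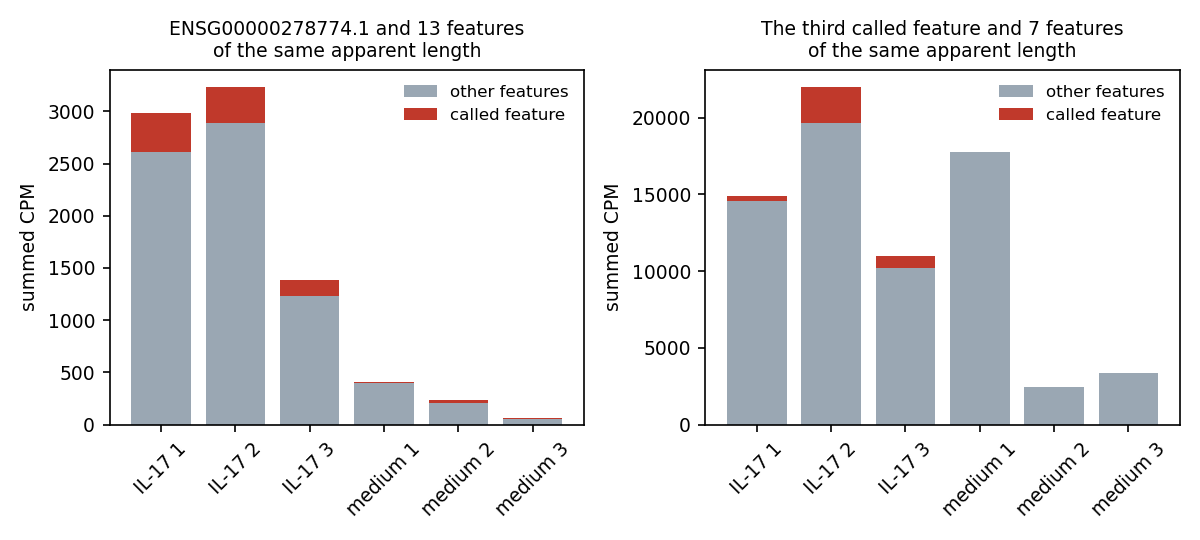
Summed CPM in the 6 IgG libraries for features within 5% of the apparent length of a called feature, which is drawn in red. The left set of 14 features reaches 1387 to 3236 CPM with IL-17 and 61.3 to 408 CPM in medium; the right set of 8 features overlaps because medium replicate 1 holds 17785 CPM.

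Short features made up much of the upper end of the ranking. Of the 25 features higher with IL-17 with the smallest p, 16 belonged to the shortest 1%, beside 1.06% of all tested features. Of the 25 lower features with the smallest p, 0 did, and their median apparent length was 0.43 against 0.0197. The length set of ENSG00000278774.1 is itself within the shortest 1%, and its 12 other tested members all had an unadjusted edgeR p under 0.05. How many of the 16 belonged to that set was not counted. Features that share reads are not independent, so the 16 need not be separate signals. Of the 255 tested members of the shortest 1%, 74 (29.0%) had an unadjusted p under 0.05 with a positive change and 7 (2.75%) with a negative one, and 2 were called. Their median log2 fold change was 0.88, with quartiles of -0.16 and 1.83. Across 10 deciles of apparent length the medians lay between 0.00, in the shortest, and 0.26, in the longest. The share with a negative change at an unadjusted p under 0.05 was 4.54% in the shortest decile and 0.864% in the longest. Median apparent lengths of the shortest features, each over the features measured in that library, moved with the libraries in the same way, as given above. The part of this was not tested.

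**Figure D5:**
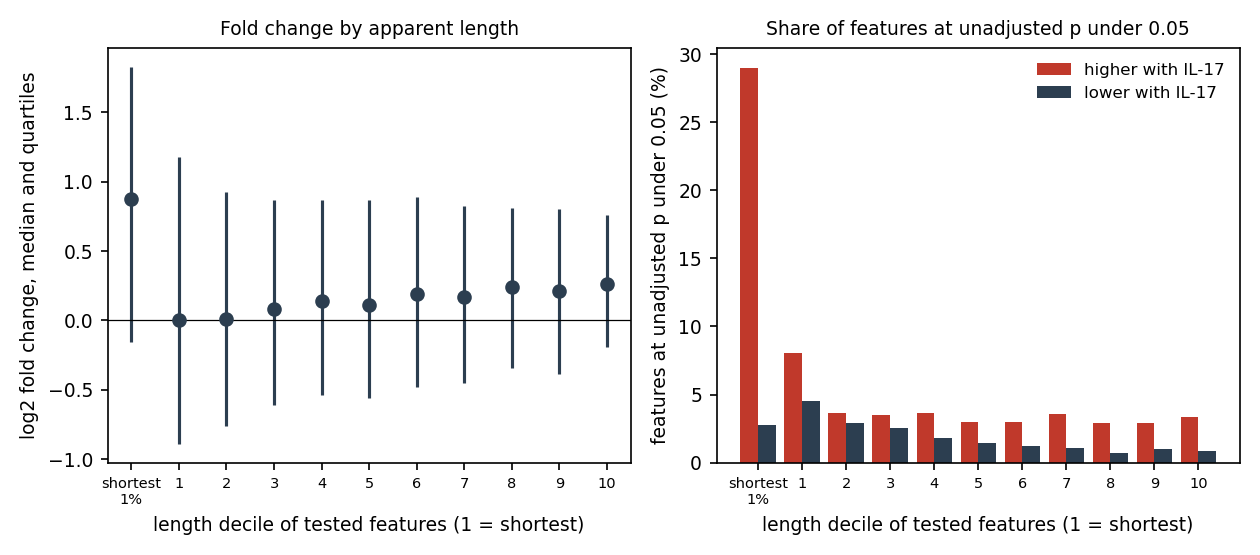
Left, the median log2 fold change (points) and quartiles (bars) of tested features in the shortest 1% and in 10 deciles of apparent length; right, the percentage higher or lower with IL-17 at an unadjusted edgeR p under 0.05. The shortest 1% reach 29.0% higher and 2.75% lower, and the deciles lie between 2.90% and 8.04% higher.

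The higher list, in which 74 of 912 were short features, held many features of low level. Of the 912 features higher at an unadjusted p under 0.05, 678 (74.3%) had a rounded count of 0 in medium replicate 1, the shallowest library, beside 58.6% of all tested features. In all 3 medium libraries 367 (40.2%) were at 0, beside 2.97% of those tested. The median of their mean level over the 6 IgG libraries was 3.39 CPM, beside 5.55 CPM for all tested features. That mean includes medium libraries at 0, so it understates the level with IL-17. The level with IL-17 alone was not set against the 4.02 CPM that a count of 0 allows in medium replicate 1. In the decile of lowest level the median log2 fold change was 1.32, and in the decile of highest level it was 0.08. Where the level lies under that floor, a count of 0 in medium replicate 1 does not show absence. A feature at 0 in every medium library had entered the test only through other groups. Where such a feature was present with IL-17, its change could only be positive, so the 40.2% is no finding about the list.

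Features lower at an unadjusted p under 0.05 had higher levels, and edgeR called none of them, while DESeq2 called 196 lower features, as given above. Its 427 members had a median level of 25.4 CPM, and 33 (7.73%) were at 0 in medium replicate 1. Both named here had the smallest p among lower features whose libraries did not overlap. ENSG00000167468.18 had 100, 94.2 and 58.0 CPM in IL-17 replicates 1, 2 and 3 and 285, 931 and 884 CPM in medium replicates 1, 2 and 3. Every medium library was above every IL-17 library, and all its counts were whole. On the log2 scale it differed by -2.94 ± 0.58 (SE), which did not pass (edgeR adjusted p = 0.0926). ENSG00000130770.18 had 59.1, 68.2 and 39.1 CPM with IL-17 and 261, 406 and 393 CPM in medium, again without overlap and with whole counts. The change was -2.65 ± 0.54 on the log2 scale (SE), with an edgeR adjusted p of 0.116.

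Calls on both features depended on the setting. With library size only, the edgeR adjusted p was 0.0701 for each, which did not pass. With RLE factors, the edgeR adjusted p was 0.00256 for ENSG00000167468.18 and for ENSG00000130770.18, and upper-quartile factors gave 0.0313 and 0.0389. On the 6 IgG libraries alone, edgeR gave 0.259 and 0.282. DESeq2 called both, with adjusted p of 4.22e-18 for ENSG00000167468.18 and 3.61e-17 for ENSG00000130770.18. These were the smallest over all alternatives, and the largest were 0.704 and 0.419, and the direction was the same in each. In FLAG libraries, ENSG00000167468.18 had 140 ± 62.5 CPM (SD, n = 3) with IL-17 and 795 ± 178 CPM (SD, n = 3) in medium, with an edgeR adjusted p of 0.272. There, ENSG00000130770.18 had 94.9 ± 35.0 CPM (SD, n = 3) with IL-17 and 299 ± 55.2 CPM (SD, n = 3) in medium, with an edgeR adjusted p of 0.457. The difference between the IgG and FLAG effects had edgeR adjusted p of 0.795 and 0.671.

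The ranked IgG features had the same sign in FLAG precipitates in most cases. Of the 25 higher features with the smallest p, 22 had a positive log2 fold change in FLAG and 16 were called there, beside 53 of 24040 features called higher (0.22%) and 1 called lower (0.00416%). Of the 25 lower features, 22 had a negative log2 fold change in FLAG and 0 were called, while 13535 of all 24040 were negative there. No feature of the 24040 passed the test of the difference between the IgG and FLAG effects by edgeR (0%), and 1767 (7.35%) had an unadjusted p under 0.05 in it. The 2 comparisons share no library, although they share the estimate of spread and the filter on low counts, and separate cultures are not stated. A feature at 0 in every medium library of both antibodies, such as ENSG00000277209.1, could not be lower with IL-17 in FLAG. How many of the 25 were of this kind was not counted. The higher 25 made up 24 distinct count profiles, so some of their reads were shared and the 22 and 16 are not independent agreements.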

How the data were processed

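Estimated counts per Ensembl identifier for 12 libraries were taken as the authors deposited them. Per the submitters' processing notes, the tools were RSEM 1.3.1, STAR 2.7.9, R 4.2.0 and DESeq2 1.36.0, with GRCh38 and hg38. Which tool made which value, the annotation and the use of strand are not given here. The second table deposited by the authors holds TPM, since all columns have the same fixed sum, although it is named for FPKM. Of the counts above 0, 18.0% were not whole, and counts were rounded before testing.

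Sample titles gave the group and the replicate number. All 12 libraries were fitted in 1 model of 4 groups with edgeR 4.0.16 (quasi-likelihood test, filterByExpr with a minimum count of 10, TMM) in R 4.3.3, as 3 libraries a group leave few degrees of freedom. The contrast was IgG IL-17 minus IgG medium, and Benjamini-Hochberg adjusted p under 0.05 over 24040 features made a call. CPM values are counts over library totals without composition factors. The procedure was tested on simulated data. At the common spread of these libraries it recovered none of the changes set, at either of the sizes tried. A second simulation with larger changes in well-counted features, designed after that result, recovered most of the largest ones. Large changes as well as moderate ones can therefore go uncalled here. The lack of lower calls does not show that no feature was lower. Single values were compared by exact two-sided permutation. Apparent length used counts of at least 20 and TPM of at least 0.2, over all libraries.

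Pairs of features were joined where both had non-whole counts in at least 6 libraries and their sums were whole within 0.01 in all 12, which gave 697 pairs. The partner of the first called feature was noticed from its identifier before this search, and the search was first run at a looser minimum. The rule for named features took called ones first; without symbols its other parts could not be applied, and at most 2 identifiers a direction are given beside 1 partner. Called features are those with the smallest p, and the 2 lower features were chosen after their values were seen, with a mean of at least 5 CPM in medium and no overlap. The planned share by RNA class needs names and was replaced by a length class chosen after several length limits had been viewed. The 5% tolerance on length was also chosen after seeing the data, with no other tolerance fitted. The comparison, members and lists were chosen with earlier results of these data known. Alternatives covered scaling, filter, DESeq2 1.42.0, limma 3.58.1, samples, depth and shared reads.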

Additional observations from a re-analysis of the deposited data

How the results depend on the processing

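Counts are of features called by edgeR after adjustment unless a tool is named, and why counts moved was not tested where no feature or library had been taken out or summed. The number of features tested differed between settings, from 9934 after thinning to 48364 without a filter. Robust fitting, summing of features, leaving out 2 libraries at once, the replicate block on the 6 IgG libraries and all settings of the short share were chosen after seeing the data. For features higher with IL-17 (3), library size only gave 5, no filter 43, DESeq2 122, complementary pairs summed 1, features of one length summed 1, and leaving out the shortest 10% of features 0 (697 at an unadjusted p under 0.05 by edgeR; other tools were not run on that set). For lower features (0; 427 at an unadjusted p under 0.05 by edgeR), RLE factors gave 6, upper-quartile factors 2, no filter 26, at least 50 counts in 3 libraries 6, DESeq2 196, limma on log2(TPM + 0.1) 1, thinning to 740000 counts 8, leaving out the shortest 10% 4 and robust fitting 2. Leaving out 1 library gave from 2 to 64 higher and from 0 to 11 lower features, with 64 and 11 both without IgG medium replicate 1. The higher count was 8 without IgG medium replicate 2 and also 8 without IgG IL-17 replicate 1, 10 without FLAG medium replicate 1, and 5, 5 and 6 without FLAG IL-17 replicates 1, 2 and 3. The replicate block gave 25 higher and 8 lower, or 61 and 9 on the 6 IgG libraries. Deviations of same-numbered IgG libraries correlated at 0.057, -0.16 and 0.39, so the numbers were not taken to pair the libraries. The share of counts in the shortest 1%, IL-17 minus medium, was 6.81 percentage points and ran from 4.94 to 9.76 when 1 IgG library was left out. Neither this share nor the log2 fold change of the 3 called and 2 named lower features changed sign under the alternatives run. The median over the whole table did: its log2 fold change was -0.21 with limma on log2(TPM + 1), and it reached 1.67 without IgG medium replicate 2. ENSG00000277209.1 was called in 12 of 12 fits that left out a library and in 16 of 17 other alternatives, the exception being the summed pair (edgeR adjusted p = 1.0). Leaving out the transfected gene was not run, as no feature was paired with a gene name. The floor of IgG medium replicate 1, at 4.02 CPM, limits what was detectable.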

Other observations

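Division of reads between features was not particular to 1 pair. Of the 697 pairs with whole sums, 279 had at least 20 summed counts in each IgG library. The share of reads given to either member differed by a median of 4.25 percentage points between the IL-17 and medium means. For 59 of the 279 pairs (21.1%) these shares did not overlap between treatments. The CPM of 9.26% of all tested features did not overlap. That is another measure, over features of every level, so it is no background for the pairs. In 10 of the 279 pairs, 1 member was at a rounded count of 0 in all 3 IgG medium libraries and present in all 3 IgG IL-17 libraries, ENSG00000277209.1 among them. Of all tested features, 2.97% were at 0 in all 3 IgG medium libraries, whatever their count with IL-17. The reverse, a member at 0 with IL-17 and present in medium, was not counted. The 10 pairs therefore give no direction by treatment. Of the 912 features higher at an unadjusted edgeR p under 0.05, 452 (49.6%) had a non-whole count in at least 1 library, as had 211 of the 427 lower features (49.4%) and 37.2% of all tested features.

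The balance between higher and lower features differed with level, which was not tested. In the decile of lowest level in IgG libraries, an unadjusted edgeR p under 0.05 went with a positive change for 192 features (7.99%). It went with a negative one for 10 (0.416%), beside 3.79% and 1.78% of all tested features. Mean levels in that decile reached only 1.16 CPM, under the 4.02 CPM that a count of 0 allows in IgG medium replicate 1. The part of this floor in the balance was not tested. In the decile of highest level these numbers were 86 (3.58%) and 104 (4.33%).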
